A study of Homo sapiens with 6 samples.

Results

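The annexins are calcium-dependent proteins that bind the acidic phospholipids on the inner face of cell membranes. The genes described are the 10 annexins ANXA1, ANXA2, ANXA3, ANXA4, ANXA5, ANXA6, ANXA7, ANXA9, ANXA11 and ANXA13. They were chosen by name from a member list, with earlier results of these data known. A probe set was taken only where the platform annotation gave it 1 gene symbol. This gave 20 probe sets of 54613 on the array and 10 genes of 19775. HT29 is an established human line from a colorectal adenocarcinoma. Cells (300000) were plated, and from the next day 3 cultures received 500 µg of a polyphenolic cocoa extract, with no volume given, while the 3 others were controls. Total RNA was isolated 24 h later, and every culture had its own Affymetrix Human Genome U133 Plus 2.0 array, 6 in all. The controls are untreated in the sample names, whereas the protocol gives saline. All 6 cultures are the same line, in F12 medium with 7% serum, and no source used here says whether cultures were grown on separate days, so p-values measure the spread between these cultures only.

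Each annexin carries a conserved core of repeats, which holds the calcium sites and attaches to the membrane, and an N-terminal tail that differs between members and binds partners. S100 proteins are the best known of these partners. In the gut epithelium annexins are known for organising the membrane and its cytoskeleton, for vesicle transport to the apical surface and for sealing membrane wounds.

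The stretches before the transcription start of 4 annexins are shown because they belong to the gene that rose most (ANXA9), to a pair that fell by a similar amount (ANXA1 and ANXA5) and to a gene that did not pass the test (ANXA2). Each is the 250 bases before a start listed by RefSeq on GRCh38.p14, 5′ to 3′. ANXA9 lies at chr1:150982042-150982291, plus strand. ANXA1 lies at chr9:73151615-73151864, plus strand. ANXA5 lies at chr4:121696981-121697230, minus strand. ANXA2 lies at chr15:60397987-60398236, minus strand. Capitals mark a TATA box (TATAAA), a GC box (GGGCGG) or an AP-1 site (TGANTCA), searched on both strands.
ANXA9: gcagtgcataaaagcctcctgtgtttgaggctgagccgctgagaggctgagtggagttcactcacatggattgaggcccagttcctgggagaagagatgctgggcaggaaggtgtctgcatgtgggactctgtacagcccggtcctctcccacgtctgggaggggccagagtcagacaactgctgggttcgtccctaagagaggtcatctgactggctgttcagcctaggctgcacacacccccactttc
ANXA1: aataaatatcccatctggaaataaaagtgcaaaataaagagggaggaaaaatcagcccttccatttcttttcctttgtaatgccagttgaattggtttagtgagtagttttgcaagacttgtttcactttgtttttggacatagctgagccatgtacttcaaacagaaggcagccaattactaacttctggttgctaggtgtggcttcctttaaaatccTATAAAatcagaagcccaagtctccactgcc
ANXA5: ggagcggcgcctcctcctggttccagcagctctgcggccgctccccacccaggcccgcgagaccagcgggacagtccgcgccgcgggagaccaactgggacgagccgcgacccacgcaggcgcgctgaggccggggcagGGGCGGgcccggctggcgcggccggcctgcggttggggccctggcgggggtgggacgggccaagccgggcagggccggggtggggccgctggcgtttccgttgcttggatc
ANXA2: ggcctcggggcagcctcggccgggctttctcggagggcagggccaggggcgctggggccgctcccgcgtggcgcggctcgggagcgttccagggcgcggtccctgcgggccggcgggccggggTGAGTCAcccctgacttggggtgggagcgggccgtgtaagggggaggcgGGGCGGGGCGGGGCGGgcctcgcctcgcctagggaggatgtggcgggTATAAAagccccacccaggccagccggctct

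The pair that fell alike is unlike in these letters. The ANXA1 stretch is 38.4% G and C and holds 1 TATA box, which begins 31 bases before the start. The ANXA5 stretch is 78.8% G and C and holds 1 GC box and no TATA box. ANXA2 holds a TATA box, 3 GC boxes that overlap one another by a base, and the AP-1 site, the only one among the members searched. ANXA9, at 58% G and C, holds none of these motifs. The interferon-stimulated response element (GAAA, any 2 bases, GAAA) was in none of the 13 stretches of the 9 members that were searched. Over all 35116 RefSeq stretches of that length, 10.7% hold the TATA box, 42.6% the GC box, 6.57% the AP-1 site and 3.02% the interferon element. A match is a run of letters and not a shown binding site.

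The table holds log2 values from which the authors had subtracted, probe set by probe set, the median over the 6 arrays. A value of 0 is therefore the middle of the 6 arrays and not an absent transcript, and levels of different annexins cannot be compared. For the same reason the colon identity of the cells cannot be read from marker levels. Of 11 colon epithelial markers 2 rose (CDH17 and GPA33) and 0 fell (18.2%), and of 6 leukocyte markers 1 rose (CD14, 16.7%), shares near the 13.5% of all genes that changed, and 0 of 7 markers of fibroblasts and endothelium changed in limma (0 also at an unadjusted p below 0.05). In RNA of whole cultures, a change in a share of the cells and a change in RNA per cell cannot be told apart. The 18S ribosomal RNA control signal stood at 3.31 and 1.40 in cocoa arrays 2 and 3, at −0.51 in the remaining cocoa array and at −1.12 to 0.51 in the controls. The 5′ minus 3′ signal of actin and GAPDH, a sign of RNA integrity, was −0.26 and −0.053 in the same pair of arrays and between 0.009 and 0.033 elsewhere.

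The annexins did not move as one. With cocoa ANXA9 and ANXA6 rose, ANXA13, ANXA5, ANXA1 and ANXA3 fell, and ANXA2, ANXA4, ANXA7 and ANXA11 did not pass the test. The test was limma over all 19775 genes, a gene being the mean of its probe sets, with a Benjamini-Hochberg adjusted p below 0.05. Thus 6 of 10 annexins changed, 2 higher and 4 lower, where 13.5% of all genes changed, 7.36% higher and 6.12% lower. The median log2 difference of the 10 was −0.11, against −0.0125 over all genes, and their median absolute difference was 0.29, against 0.099. ANXA9 and ANXA13 were the only ones of these 10 to change by at least 1.5-fold, which 2.26% of all genes did. Their intervals did not meet those of any other of the 10, whereas the intervals of ANXA5, ANXA1 and ANXA3 overlapped one another. The groups were fully separated in 9 of the 10 annexins, compared with 32.5% of all genes, ANXA4 being the exception. The list was chosen with earlier results of these data known, so these shares and medians are no test of the family.

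**Figure D1:**
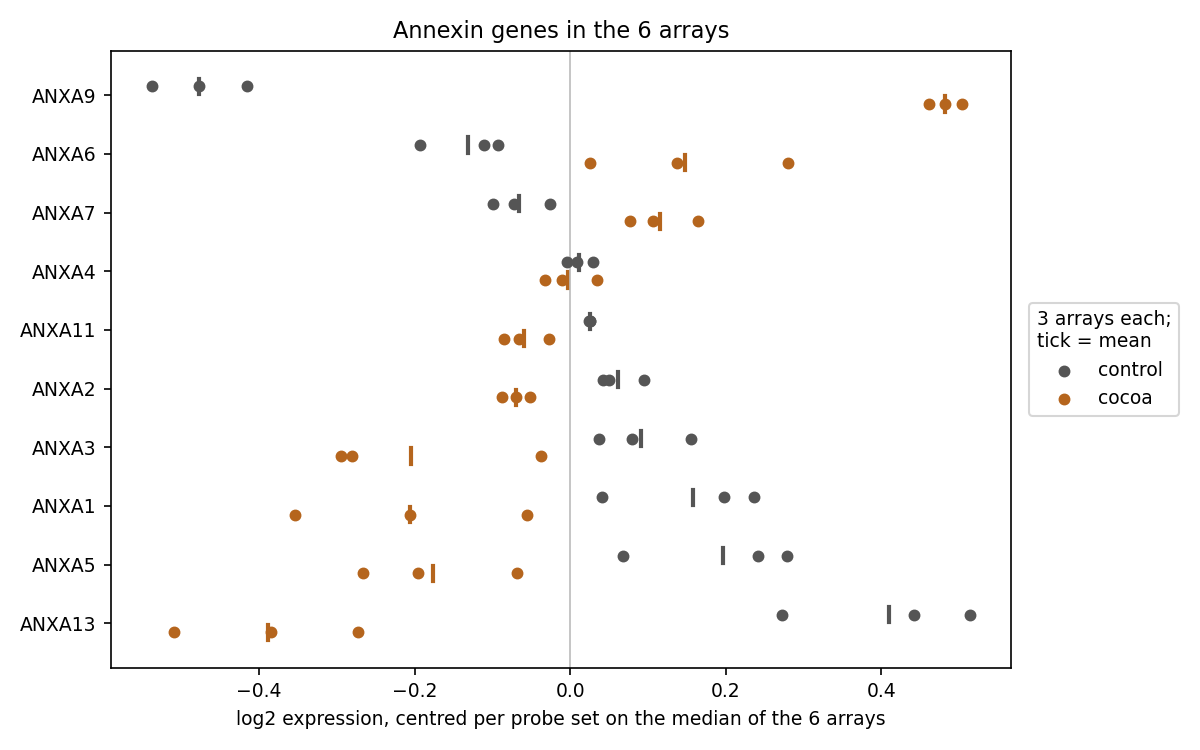
Centred log2 expression of the 10 annexin genes (horizontal axis) in each of the 3 control and 3 cocoa arrays, genes ordered by their difference, with ticks at the group means. ANXA9 at the top and ANXA13 at the bottom are the widest separated, and ANXA4 is the gene whose groups overlap.

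Of the 10 annexins ANXA9 rose most. It is an atypical annexin whose core has lost residues of the usual calcium sites. The control arrays read −0.42, −0.48 and −0.54, and the cocoa arrays 0.46, 0.48 and 0.50. The cocoa arrays were tightly grouped (SD 0.021) and far above all controls. The gene was 1.94-fold higher (0.96 on the log2 scale, SE 0.064, n = 3 per group, limma adjusted p = 4.12e-05). Its absolute difference ranked 121 among the 19775 genes. Both of its probe sets rose, 211712_s_at by 1.05 (SE 0.076) and 210085_s_at by 0.87 (SE 0.083). Both carry the suffix _s_at, given to probe sets that can match more than 1 transcript, and no other probe set reads this gene.

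The 3 genes whose values over the 6 arrays lay closest to those of ANXA9 were HLA-DMA, TCEA3 and NIBAN1. HLA-DMA, a chaperone that loads peptides on MHC class II, was at a root mean square distance of 0.058 log2 units. TCEA3, a transcription elongation factor, was at 0.063, and NIBAN1, a stress-responsive protein, at 0.069. Their log2 differences were 0.99, 1.05 and 0.96. They were picked for this likeness, so it is no test.

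Of these 10 annexins ANXA13 fell most. It is the annexin typical of the intestinal epithelium, where it is anchored to membranes by a fatty acid and takes part in transport to the apical surface. The controls read 0.44, 0.27 and 0.51, and the cocoa arrays −0.27, −0.51 and −0.38. Every cocoa array was below every control, with the smallest gap between control array 2 and cocoa array 1. The gene was 1.74-fold lower (−0.80 on the log2 scale, SE 0.088, n = 3 per group, limma adjusted p = 0.000654). It is read by 1 probe set, 208323_s_at. ANXA13 and ANXA9 were the 2 of these 10 annexins that kept their call in each of the 6 fits without 1 array. They also kept it with the 18S signal as a covariate, at log2 differences of −0.67 and 0.96 (limma adjusted p = 0.00473 and 0.00085), and with the 5′ to 3′ signal as a covariate.

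ANXA5, which binds phosphatidylserine and is used to stain dying cells, fell by 0.37 on the log2 scale (SE 0.082, limma adjusted p = 0.017). Its controls read 0.28, 0.24 and 0.068, and its cocoa arrays −0.068, −0.20 and −0.27. The groups did not overlap, but control array 3 and cocoa array 1 lay near the middle. It is read by 1 probe set, 200782_at, which also passed over all probe sets (adjusted p = 0.0432). Leaving out single arrays gave an adjusted p of 0.0143 to 0.0774, and the call was lost without control array 1 or 2 or cocoa array 2 or 3.

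ANXA1, a protein induced by glucocorticoids that restrains cytosolic phospholipase A2 and signals through formyl peptide receptors, fell by 0.36 on the log2 scale (SE 0.091, limma adjusted p = 0.0281). The controls read 0.20, 0.041 and 0.24, and the cocoa arrays −0.056, −0.21 and −0.35. The spread was wide in both groups (SD 0.10 in controls and 0.15 with cocoa). The groups did not overlap in this mean of its probe sets. In 233011_at alone they overlapped, with control array 2 at −0.0024 and cocoa array 1 at 0.0024. Its 2 probe sets read −0.32 (SE 0.098) and −0.41 (SE 0.125) and did not pass over all probe sets (adjusted p = 0.0928 and 0.0859). The call of the gene was lost when control array 1 or 3 or cocoa array 2 or 3 was left out (adjusted p from 0.0145 to 0.0955).

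ANXA3, a calcium-dependent inhibitor of phospholipase A2 like ANXA1, fell by 0.29 on the log2 scale (SE 0.084, limma adjusted p = 0.0475). The controls read 0.080, 0.037 and 0.16. Cocoa arrays 1 and 3 read −0.28 and −0.29, while cocoa array 2 read −0.037, close to the lowest control. Its only probe set, 209369_at, had an adjusted p of 0.0966 over all probe sets. The call of ANXA3 was kept without cocoa array 2 and lost without any other array (adjusted p 0.0165 to 0.141). It was also lost with each array centred on its median (adjusted p = 0.0501) and without _s_at and _x_at probe sets (0.0626).

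ANXA6, which carries the annexin core in duplicate and scaffolds regulators of Ras at the membrane, rose by 0.28 on the log2 scale (SE 0.079, limma adjusted p = 0.0459). The controls read −0.19, −0.11 and −0.092, and the cocoa arrays 0.14, 0.28 and 0.026. It is the mean of 2 probe sets with different readings. The probe set 200982_s_at read −0.42, −0.27 and −0.15 in the controls and 0.44, 0.53 and 0.15 with cocoa. It rose 1.57-fold (log2 difference 0.66, SE 0.12, limma adjusted p = 0.013). The probe set 244250_at read −0.096 (SE 0.083, adjusted p = 0.58) as a difference, and its groups overlapped. Which transcripts either probe set reads was not analysed here. The call of the gene was kept without cocoa array 3 and lost without any other array (adjusted p from 0.0344 to 0.147).

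With the 18S signal as a covariate ANXA1, ANXA3, ANXA5 and ANXA6 kept their directions, at log2 differences of −0.27, −0.38, −0.32 and 0.21, and did not pass (limma adjusted p = 0.176, 0.0581, 0.111 and 0.236), so 2 of the 6 calls were kept. Without the covariate the differences were −0.36, −0.29, −0.37 and 0.28. With the 5′ to 3′ signal 3 were kept, those of ANXA9, ANXA13 and ANXA3 (adjusted p = 0.0215). The covariates take a degree of freedom from 6 arrays, and the part of RNA quality in these differences was not tested further.

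**Figure D2:**
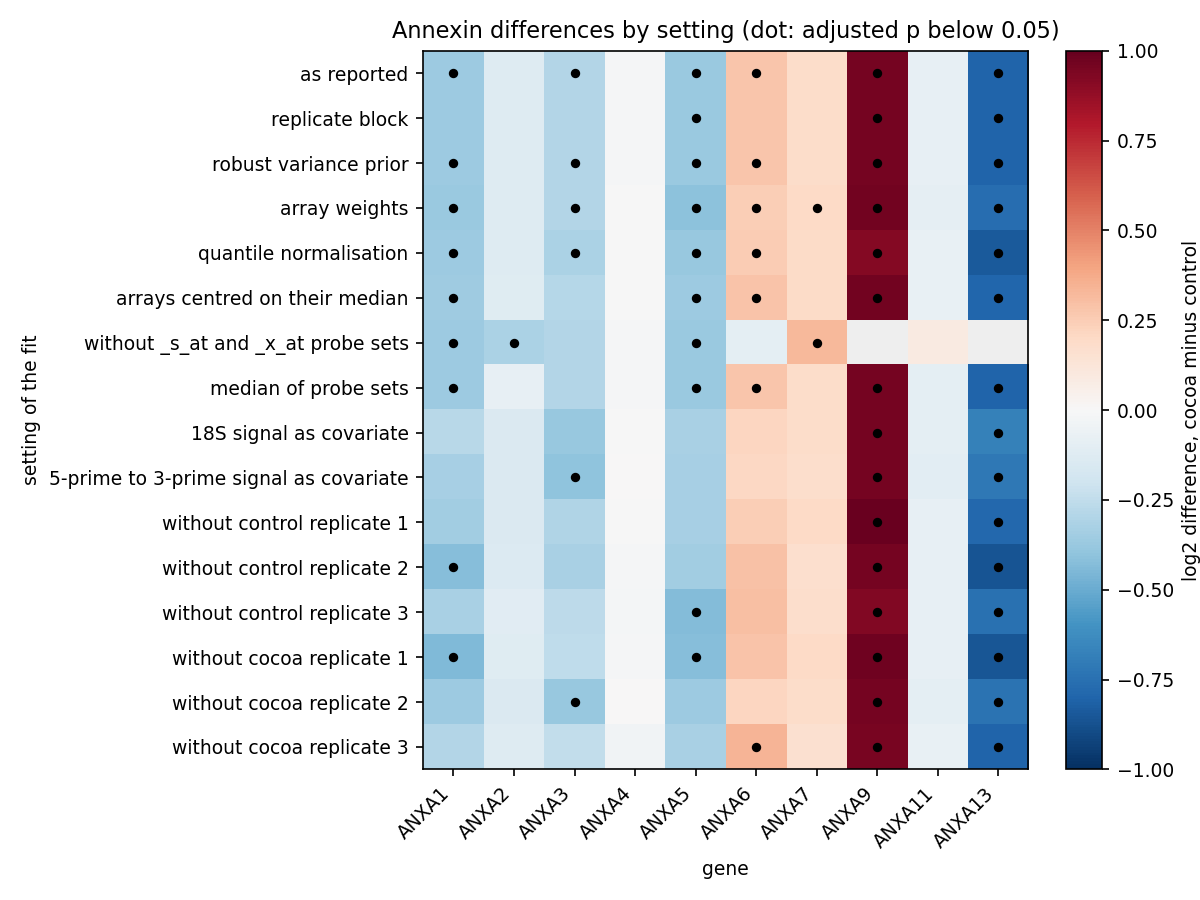
Log2 difference (cocoa minus control, colour) of each annexin gene (columns) as reported and under 15 other settings of the fit (rows), with a dot where the limma adjusted p is below 0.05; blank cells are genes without a probe set in that setting. ANXA9 and ANXA13 carry a dot in every setting that measures them, and the dots of ANXA1, ANXA3, ANXA5 and ANXA6 are missing in some settings.

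ANXA7, or synexin, has a long N-terminal tail that binds the calcium sensors sorcin and ALG-2. It read −0.026, −0.099 and −0.072 in the controls and 0.077, 0.11 and 0.16 with cocoa, without overlap. Its log2 difference was 0.18 (95% interval 0.040 to 0.32, limma adjusted p = 0.092). The probe set 201366_at read 0.32 (adjusted p = 0.0581) and 209860_s_at read 0.042 (adjusted p = 0.836). With the first alone, in the fit without probe sets of suffix _s_at or _x_at, ANXA7 passed (log2 difference 0.32, limma adjusted p = 0.0333).

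ANXA2 pairs with S100A10 into a complex that gathers plasminogen and its activator at the cell surface. It read 0.042, 0.050 and 0.095 in the controls and −0.088, −0.052 and −0.070 with cocoa. Its log2 difference was −0.13 (95% interval −0.27 to 0.0034, limma adjusted p = 0.196). The 3 probe sets of suffix _x_at, which may share probes with its processed pseudogenes, read −0.067 to −0.075, each with an adjusted p of at least 0.618. The fourth, 1568126_at, read −0.31 (SE 0.085, adjusted p = 0.0603 over probe sets). In the fit without _s_at and _x_at probe sets it stood for the gene, and ANXA2 passed (limma adjusted p = 0.0346).

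ANXA11, which tethers RNA granules to lysosomes and binds S100A6 and ALG-2, had a log2 difference of −0.085 (95% interval −0.22 to 0.050, limma adjusted p = 0.427). As the mean of its probe sets the control arrays read 0.0253, 0.0245 and 0.0258, and the cocoa arrays −0.065, −0.028 and −0.086. In the controls its single probe sets were less even (SD 0.0272 to 0.0465). Its 2 probe sets of suffix _s_at read −0.16 and −0.19, and 228727_at read 0.089. None of the 3 passed. ANXA4, an annexin of secretory epithelia, had the smallest difference, −0.014 (95% interval −0.15 to 0.12, limma adjusted p = 0.923). Its controls lay between −0.0039 and 0.030 and its cocoa arrays between −0.032 and 0.035.

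Over all probe sets 5 of the 20 passed, 3 higher and 2 lower, where 7.98% of all probe sets passed, 4.68% higher and 3.3% lower. In 16 of the 20 the groups did not overlap, against 27.6% of all probe sets. Those that passed were both of ANXA9, 1 of ANXA6 and the single ones of ANXA5 and ANXA13. Thus ANXA1 and ANXA3 were called in the fit of genes and not in that of probe sets. For ANXA3 the value is the same in both, and the fits differ in their pooled variance and in the number of tests.

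**Figure D3:**
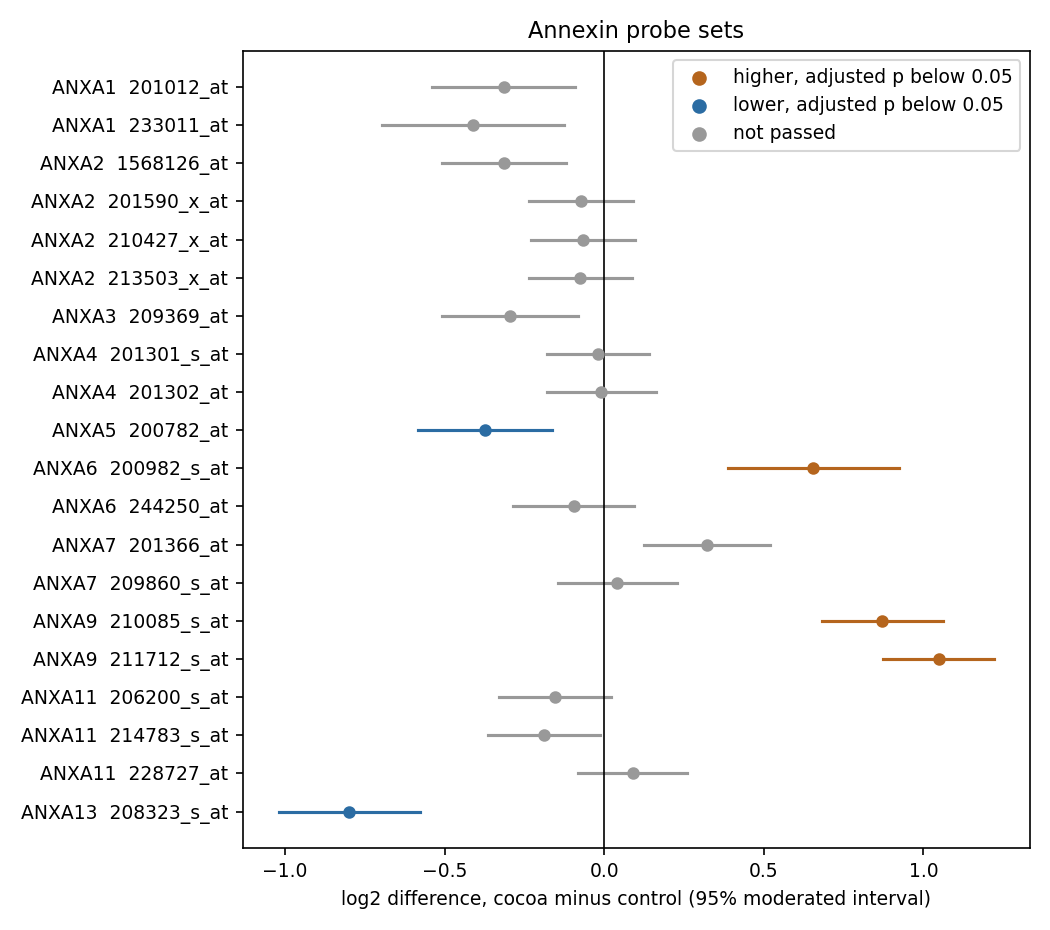
Log2 difference (cocoa minus control, horizontal axis) of the 20 annexin probe sets with 95% moderated intervals, coloured by whether the limma adjusted p over all probe sets was below 0.05. The intervals of the 2 probe sets of ANXA6 do not meet, whereas that of 1568126_at overlaps those of the other ANXA2 probe sets.

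Among 6 S100 proteins that bind annexins, 2 fell and 4 did not pass (33.3%, against 13.5% of all genes; median −0.11). S100A10, the partner of ANXA2, read 0.28, 0.35 and 0.55 in the controls and −0.28, −0.59 and −0.47 with cocoa. It was 1.79-fold lower (log2 difference −0.84, SE 0.099, limma adjusted p = 0.000929). As means of probe sets, this was a larger difference than that of ANXA2, whose 95% interval lay apart from that of S100A10 (−1.06 to −0.62). The S100A10 probe sets 200872_at and 238909_at read −0.56 and −1.12, and both passed over all probe sets (limma adjusted p = 0.00324 and 0.00748). By probe set the separation was not complete. The interval of 200872_at (−0.72 to −0.40) overlapped that of 1568126_at of ANXA2 (−0.51 to −0.12). S100A4, a promoter of cell motility that also binds ANXA2, fell by 0.89 (SE 0.11, limma adjusted p = 0.00143). Its spread was wider with cocoa (SD 0.24) than in the controls (0.091). It is read by 203186_s_at alone, so it has no value in the fit without _s_at and _x_at probe sets. S100A11, the partner of ANXA1, had a difference of −0.12 (SE 0.063, adjusted p = 0.261), and S100A6 one of −0.097 (SE 0.10, adjusted p = 0.627). Both S100A10 and S100A4 kept their call in all 6 fits without 1 array.

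Of 6 phospholipases A2 and relatives, 1 fell, 1 rose and 4 did not pass (33.3% changed, against 13.5% of all genes, with a median of −0.013). PLA2G4A, the cytosolic phospholipase A2 that releases arachidonic acid and is restrained by ANXA1, was likewise lower in every cocoa array than in every control. It read 0.29, 0.22 and 0.15 in the controls and −0.15, −0.20 and −0.28 with cocoa (log2 difference −0.43, SE 0.069, limma adjusted p = 0.0039). Its call held in all 6 fits without 1 array. PLAAT3, a phospholipase and acyltransferase, rose by 0.39 (SE 0.087, limma adjusted p = 0.0184). It did not pass without control array 2 or without cocoa array 3 (adjusted p from 0.0144 to 0.0843). Of its probe sets 235110_at passed over all probe sets (0.53, limma adjusted p = 0.0383) and 209581_at did not (0.24, adjusted p = 0.113). The formyl peptide receptors FPR1, FPR2 and FPR3, through which ANXA1 signals, were in a list of 7 other partners of which 0 passed in limma (0 also at an unadjusted p below 0.05; median −0.031).

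Of 12 genes of the scramblase and flippase families, listed for the phosphatidylserine that ANXA5 binds, 3 rose, 0 fell and 9 did not pass. That is 25% changed, against 13.5% of all genes, with a median of 0.10. PLSCR4, of the scramblase family, read −0.48, −0.68 and −0.71 in the controls and 0.48, 0.53 and 0.66 with cocoa. It was 2.27-fold higher (log2 difference 1.18, SE 0.083, limma adjusted p = 5.57e-05). PLSCR1, a scramblase family member induced by interferon, rose by 0.67 (SE 0.063, limma adjusted p = 0.00028). Its probe sets 202430_s_at and 202446_s_at read 1.06 and 0.86, while 244315_at read 0.10, the value left without the suffix _s_at (adjusted p = 0.661). ATP8B1, a flippase, rose by 0.28 (SE 0.080, limma adjusted p = 0.0472). It lost its call whichever array was left out (adjusted p from 0.0504 to 0.156), and also with the 18S and the 5′ to 3′ covariate (0.253 and 0.185). Neither of its probe sets, 214594_x_at and 226302_at, passed over all probe sets (limma adjusted p = 0.329 and 0.0688). The flippase subunit TMEM30A had a difference of 0.033 (SE 0.098, adjusted p = 0.883).

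In the plasminogen list 1 of 6 rose and 5 did not pass (16.7%, against 13.5% of all genes, with a median of 0.046). The gene was PLGRKT, a plasminogen receptor of the plasma membrane, which rose by 0.55 (SE 0.073, limma adjusted p = 0.00167). PLAT and PLAU, the plasminogen activators, had differences of 0.051 (SE 0.11) and −0.029 (SE 0.068), and neither passed. Of 13 genes of membrane repair and ESCRT-III, a complex that pinches membranes, 1 rose and 12 did not pass (7.69%, below the 13.5% of all genes, median 0.052). It was VPS4B, the ATPase that takes the complex apart (0.38, SE 0.072, limma adjusted p = 0.00885; adjusted p = 0.0697 with the 18S covariate). The copines, a separate family of calcium-dependent phospholipid-binding proteins, had 0 of 9 members past the threshold in limma (1, CPNE3, at an unadjusted p below 0.05; median −0.0091).

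Of 6 genes of the glucocorticoid receptor and its common targets 2 fell and 4 did not pass (33.3%, against 13.5% of all genes, with a median of −0.076). DUSP1, a phosphatase of MAP kinases, fell by 0.37 (SE 0.067, limma adjusted p = 0.00692) and kept its call in all 6 fits without 1 array. Its probe sets differed: 201041_s_at read −0.66 and passed over all probe sets (limma adjusted p = 0.00391). The others, 201044_x_at and 226578_s_at, read −0.30 and −0.16 and did not pass (adjusted p = 0.1 and 0.509). All carry a suffix _s_at or _x_at, so DUSP1 has no value in the fit without these. FKBP5, a co-chaperone of the receptor, fell by 0.42 (SE 0.11, limma adjusted p = 0.0286). None of its probe sets passed over all probe sets (limma adjusted p from 0.0706 to 0.0845). The gene kept its call without cocoa array 1 and lost it without any other array (adjusted p 0.00842 to 0.103). Either covariate, 18S or 5′ to 3′, brought its difference to −0.25, and it did not pass (limma adjusted p = 0.168 and 0.0876). The receptor NR3C1 had a difference of −0.039 (SE 0.065, adjusted p = 0.775), and TSC22D3, a classic induced target, one of 0.24 (SE 0.11, adjusted p = 0.182).

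**Figure D4:**
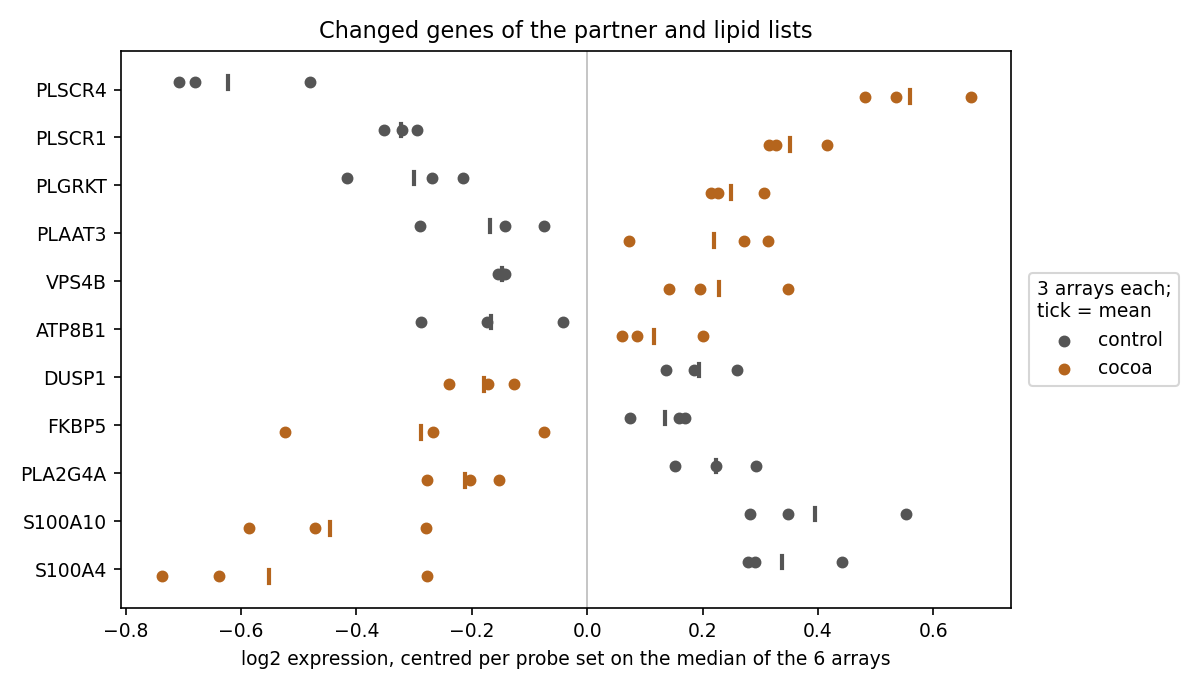
Centred log2 expression (horizontal axis) of the changed genes of the partner and lipid lists in each of the 3 control and 3 cocoa arrays, with ticks at the group means. PLSCR4 and PLSCR1 are the highest with cocoa, and S100A4 and S100A10 the lowest. No gene shown has overlapping groups, as in 32.5% of all genes. Only genes that passed the test are shown, so this separation is no further result. Single probe sets of PLSCR1, ATP8B1 and DUSP1 do overlap.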

How the data were processed

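Expression was read in 6 HT29 cultures, 3 with cocoa extract and 3 controls, each on 1 Affymetrix array. The authors made the deposited log2 values with RMA, per the submitters' processing notes. GeneSpring GX is the software named in the series text. Versions, annotation and filters are not stated there. The log2 base follows from RMA. The table is centred on 0 for each probe set (no median exceeds 5.0e-07 in size), so detection and signal over background are unknown, and the number of arrays limits the precision.

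Of 54675 probe sets, 62 Affymetrix controls were left out, and 41091 of the rest had 1 symbol in the platform annotation. Probe sets of a gene were averaged. Cocoa minus control was fitted with limma 3.58.1 (lmFit, eBayes) in R 4.3.3 over all genes and, separately, over all probe sets, with Benjamini-Hochberg adjustment. Values are log2 differences with moderated SE and 95% intervals. Alternatives were a replicate block, a robust prior, array weights, quantile normalisation, median centring, removal of _s_at and _x_at probe sets, the median of probe sets, the 18S and 5′ to 3′ covariates, a fold threshold of 1.5 and leaving out each array.

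The members and the 8 lists of related genes were chosen with earlier results of these data known. The text names every annexin of the member list with its probe sets, up to 4 changed genes of each list by size, and the 3 genes nearest to the most changed annexin; other list members, the changed markers, and the annexin-named probe sets outside the member list were named after their values were seen. Promoter stretches are from RefSeq, GRCh38.p14; ANXA13 was not searched. Pairs of control arrays differed with an SD of 0.175 to 0.215 over probe sets and pairs of cocoa arrays with one of 0.22 to 0.264, so none were copies.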

Additional observations from a re-analysis of the deposited data

How the results depend on the processing

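Against 6 changed annexins, there were 3 with the replicate number as a block (ANXA5, ANXA9 and ANXA13), 2 with the 18S covariate, 3 with the 5′ to 3′ covariate and 2 at a fold of at least 1.5, and there were 2 to 4 when 1 array was left out, against 5 to 7 under the robust prior, array weights, quantile normalisation, median centring and the median of probe sets. Without _s_at and _x_at probe sets 4 of 8 measured annexins passed, 2 of them (ANXA1 and ANXA5) among the 6. In that fit 1813 genes passed, and their share of the genes measured there was not computed. No source used here says whether the replicate numbers pair the cultures. The deviations of same-numbered arrays from their group means correlated at −0.12, −0.009 and −0.003 over genes. Arrays did not correlate best with their own number. With 3 arrays per group these correlations cannot decide whether the cultures were paired. Against 2666 changed genes, there were 1947 with the replicate block, 1103 with the 18S covariate, 1411 with the 5′ to 3′ covariate, 446 at a fold of at least 1.5 and 1315 to 2881 in the fits without 1 array, the lowest without control array 2. Against 4358 changed probe sets, there were 2078 with the replicate block, 2499 without _s_at and _x_at probe sets, 1314 with the 18S covariate, 1809 with the 5′ to 3′ covariate and 1416 to 4602 in the fits without 1 array. Signs turned in few cases. Without _s_at and _x_at probe sets ANXA6 read −0.096 and ANXA11 0.089, from the probe set that remained. ANXA4 read 0.001 with the 5′ to 3′ covariate and −0.032 to 0.0011 when 1 array was left out, above 0 without cocoa array 2. Its probe set 201302_at read 0.004 with array weights, 0.0084 with the 18S covariate, 0.018 with the 5′ to 3′ covariate and −0.044 to 0.019 when 1 array was left out, above 0 without control array 1 (0.0037) or cocoa array 2. A filter on dim probe sets could not be run, since the table holds no levels.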

Other observations

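Other annexin-named probe sets lay outside the member list. ANXA10, a gastric annexin with few working calcium sites, read 0.46, 0.38 and 0.48 in the controls and −0.38, −0.84 and −0.42 with cocoa. It was 1.98-fold lower (log2 difference −0.99, SE 0.11, n = 3 arrays per group, limma adjusted p = 0.000872), a difference of the size of that of ANXA9 in the other direction. ANXA10 is read by 210143_at alone, and its spread was wider with cocoa (SD 0.25) than in the controls (0.054). Unlike ANXA9, it was not followed through the covariate fits or the fits without 1 array. ANXA2R, described as a receptor of ANXA2, had a difference of −0.20 (SE 0.066, adjusted p = 0.0784). The probe set 201077_s_at, annotated to both SNU13 and ANXA2, had one of −0.25 (SE 0.077, adjusted p = 0.0867 over probe sets). Both probe sets shared by ANXA8 and ANXA8L1 had differences of 0.036 and −0.0005, and those of the ANXA2 pseudogenes ANXA2P1, ANXA2P2 and ANXA2P3 were −0.012, −0.040 and −0.081. None of these 5 passed.

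In 6 of the 10 annexins the SD over the 3 arrays was larger with cocoa than in the controls. In ANXA9 it was 0.021 with cocoa and 0.061 in the controls, and in ANXA3 0.15 and 0.060. The share over all genes was not computed. Over all probe sets pairs of cocoa arrays also differed more (SD 0.22 to 0.264) than pairs of control arrays (0.175 to 0.215).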
